A study of Mus musculus with 64 samples.

Results

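The 8 genes described here, Ttc39c, Nt5e, Abhd2, Rassf3, Sall1, Tox, Ociad2 and Chpt1, were chosen because their difference between male and female liver changed between the fetal and the adult stage in these data. All 8 symbols were found, among 23338 genes in each count file. They had been grouped as nonenzyme genes, but Nt5e, Chpt1 and Abhd2 encode enzymes, so they are called here the liver genes with a stage-dependent sex difference. Because the fetal sex difference, the adult sex difference and the change between them were the reason for choosing these genes, those values are given as a description, with no test. Tests of these 8 genes are kept for comparisons that played no part in the choice. These are adult against fetal liver averaged over the sexes, 2i ES cells against fetal liver, and male against female in ES cells and embryos. Other genes, in 4 lists, are also tested between the sexes in liver. Those lists were chosen with earlier results of these data known.

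The series holds 64 RNA-seq libraries from C57BL/6 mice. Late gestation fetal liver and adult liver, the latter from animals aged 15 to 20 weeks, had 12 male and 12 female libraries each, and the labels give no treatment or altered gene for any sample. Eight-cell embryos had 6 libraries per sex, each made from all cells of a single embryo by a single-cell protocol, and ES cells had 2 male and 2 female lines, each derived from an embryo and grown in 2i medium, which holds inhibitors of the MAP kinase and glycogen synthase kinase 3 pathways. The litter of each animal is not given in the sources used here, so the p-values measure the spread between these samples.

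In adult mammals the liver is among the organs in which the sexes differ most in gene expression, and much of that difference is known to follow the male and female patterns of growth hormone release from the pituitary, which act in hepatocytes through the transcription factor STAT5 and are set up around puberty. Before birth the liver is also the main site of blood formation, and its hepatocytes are immature. The 8 genes have different roles. Nt5e encodes CD73, a surface enzyme that turns extracellular AMP into adenosine, Chpt1 encodes cholinephosphotransferase, which makes phosphatidylcholine, and Abhd2 is a member of the alpha/beta hydrolase family. Rassf3 is a Ras association domain protein, Sall1 is a zinc finger transcription factor best known from kidney development, and Tox is a nuclear HMG box protein best known from T cell development. Ociad2 encodes an OCIA domain protein and Ttc39c encodes a tetratricopeptide repeat protein whose role is little described.

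Each library held between 1567583 and 10386931 reads on genes, and the adult livers were the shallowest, from 1567583 to 4757610. Levels are given as CPM, the reads of a gene relative to the library's total, scaled with TMM factors over all 64 libraries. CPM is not corrected for gene length, so levels are compared between groups and not between genes. In the livers the female-expressed Xist was at 0 to 1.06 CPM in males and 509 to 1255 CPM in females, and the Y-linked Ddx3y at 141 to 245 CPM in males and 0 to 1.31 CPM in females, so no liver went against its label. The 8 hepatocyte markers summed to 26713 to 35860 CPM in the fetal livers and reached 64175 to 80082 CPM in the adult ones. In bulk tissue, fewer cells of a type and less RNA per cell cannot be told apart.

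Fetal female library 14 stood apart from the other 23 fetal livers. Its 8 intestinal epithelium markers summed to 1852 CPM, against 7.04 to 16.3 CPM in the others. Among them, Lct (lactase) was at 461 CPM and Alpi (intestinal alkaline phosphatase) at 149 CPM. The intestinal list was added to the 12 marker lists set in advance. Chpt1 was at 183 CPM in this library and between 8.39 and 13.9 CPM in the other 23. Ociad2 was at 41.3 CPM in it and between 2.50 and 6.90 CPM in the others. The other 6 genes were within or just below the range of the remaining fetal livers in this library, Sall1 at 7.83 CPM against a lowest other value of 7.96 CPM. Fetal values of Chpt1 and Ociad2 are therefore given with and without it. Pancreatic markers were highest in fetal female library 15, at 1235 CPM, fetal male library 12, at 626 CPM, and fetal female library 24, at 313 CPM, and ran from 26.8 to 216 CPM in the other 21 fetal livers. After library 14, library 15 had the highest fetal Chpt1 level, at 13.9 CPM, and libraries 24 and 12 had the highest fetal Ociad2 levels, at 6.90 and 6.24 CPM. But library 15 had Ociad2 at 4.59 CPM, and libraries 24 and 12 had Chpt1 at 10.3 and 9.36 CPM. Fetal male library 9, with pancreatic markers at 31.0 CPM, had Chpt1 at 13.8 CPM. The part of other tissue in these values was not tested.

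**Figure D1:**
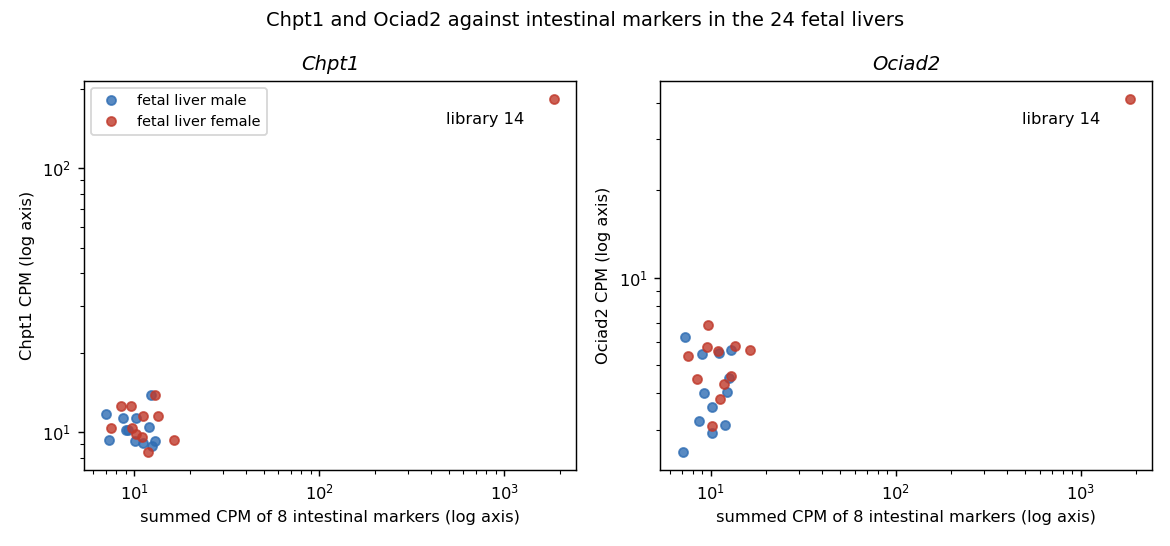
Level of Chpt1 and Ociad2 (vertical, CPM, log axis) against the summed CPM of 8 intestinal markers (horizontal, log axis) in the 24 fetal livers, 12 male in blue and 12 female in red, each point a library. Fetal female library 14 lies alone at 1852 CPM of intestinal markers, with Chpt1 at 183 CPM and Ociad2 at 41.3 CPM.

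A further measure separated the fetal sexes. The share of counted reads that fell outside genes was 39.9 to 49.0% in fetal males and 34.1 to 38.1% in fetal females, so this share and sex cannot be told apart in fetal liver. With the share as a covariate, the fetal male minus female difference (log2) went from -0.17 to -0.38 for Ttc39c and from 0.17 to -0.07 for Abhd2, and the change of the sex difference with age went from 2.49 to 1.31 ± 0.75 (SE) for Ociad2 and from 2.49 to 0.91 ± 0.98 for Chpt1. All these fits kept fetal female library 14. The values of Ociad2 and Chpt1 with no covariate also depend on that library, as given below. In adult liver the shares overlapped, at 28.0 to 35.2% in males and 25.7 to 36.6% in females. Alignments that were not unique, per 100 counted reads, also moved with sex. They ran from 72.9 to 157 in adult males and 48.6 to 76.0 in adult females, a narrow overlap. In fetal males they ran from 30.3 to 35.4 and in fetal females from 35.9 to 39.9, with no overlap. The part of this measure in the sex differences was not tested.

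RefSeq (GRCm38.p6) held promoter windows for 5 of the 8 genes, Sall1, Abhd2, Nt5e, Chpt1 and Ociad2. The bases of the window that lie before its first annotated exon are shown for a pair of genes that were higher in adult female liver, Sall1 and Abhd2, and a pair that were higher in adult male liver, Chpt1 and Ociad2, so that their base composition can be compared. Each is written 5′ to 3′ on the strand of the gene, with CG dinucleotides in capitals.
Sall1: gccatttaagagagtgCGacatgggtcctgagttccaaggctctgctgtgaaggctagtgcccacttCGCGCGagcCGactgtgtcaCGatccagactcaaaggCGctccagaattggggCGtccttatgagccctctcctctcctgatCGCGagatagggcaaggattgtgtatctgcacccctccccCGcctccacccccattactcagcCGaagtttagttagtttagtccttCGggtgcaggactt
Abhd2: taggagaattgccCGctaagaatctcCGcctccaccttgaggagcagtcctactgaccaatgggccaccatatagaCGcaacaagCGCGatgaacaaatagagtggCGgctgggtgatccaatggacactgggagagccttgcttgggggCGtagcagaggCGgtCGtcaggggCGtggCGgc
Chpt1: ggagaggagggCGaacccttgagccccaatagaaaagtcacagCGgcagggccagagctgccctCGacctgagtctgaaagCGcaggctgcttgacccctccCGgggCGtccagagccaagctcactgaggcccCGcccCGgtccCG
Ociad2: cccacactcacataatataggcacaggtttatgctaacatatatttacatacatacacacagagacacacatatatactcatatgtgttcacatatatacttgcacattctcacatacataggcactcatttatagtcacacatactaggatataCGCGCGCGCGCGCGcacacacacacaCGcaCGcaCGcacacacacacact

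The Sall1 stretch (chr8:89044163-89044412, minus strand) held 13 CG dinucleotides in 250 bases and the Abhd2 stretch (chr7:79273016-79273198, plus strand) held 11 in 183 bases. The Chpt1 stretch (chr10:88504074-88504220, minus strand) held 9 in 147 bases, and the Ociad2 stretch (chr5:73338993-73339197, minus strand) held 10 in 205 bases, mostly in a run of CG and CA repeats. The Ociad2 stretch lies inside the gene's annotated span, upstream of an internal start. G and C made up 56.4, 59.0 and 67.3% of the Sall1, Abhd2 and Chpt1 stretches and 42.4% of the Ociad2 stretch. The windows were searched on both strands, over 300 bases, for TTCNNNGAA, the letters STAT factors bind, and for ATCGAT, the core of HNF6 and CUX2 sites. Neither was in any of the 7 windows of the 5 genes, and they were in 8.3% and 0.925% of all 32851 promoter windows. This says only that those letters are not in these windows.

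Adult male and female livers separated for 6 of the 8 genes, with no overlap between the 12 male and the 12 female libraries. Ttc39c, Rassf3, Ociad2 and Chpt1 were higher in every adult male, and Nt5e and Abhd2 were higher in every adult female. Sall1 and Tox were higher in adult females with overlapping ranges. In fetal liver the ranges of the sexes overlapped for all 8 genes. Over the 13026 genes kept in the liver comparison, 2.08% had adult ranges that did not overlap, 1.01% with every male higher and 1.07% with every female higher, and 1.82% had fetal ranges that did not, 1.26% and 0.56% in the same order. By edgeR's quasi-likelihood test, at an adjusted p below 0.1 and a log2 difference beyond 0.5, 4.64% of 12930 genes differed between the fetal sexes (3.81% higher in males, 0.828% in females) and 9.49% of 10372 between the adult sexes (3.01% and 6.48%). The sex difference itself changed with age by the same rule in 13.7% of 13026 genes, towards males in 5.19% and towards females in 8.53%. Since the 8 genes were chosen on these contrasts, nothing is read from their count.

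**Figure D2:**
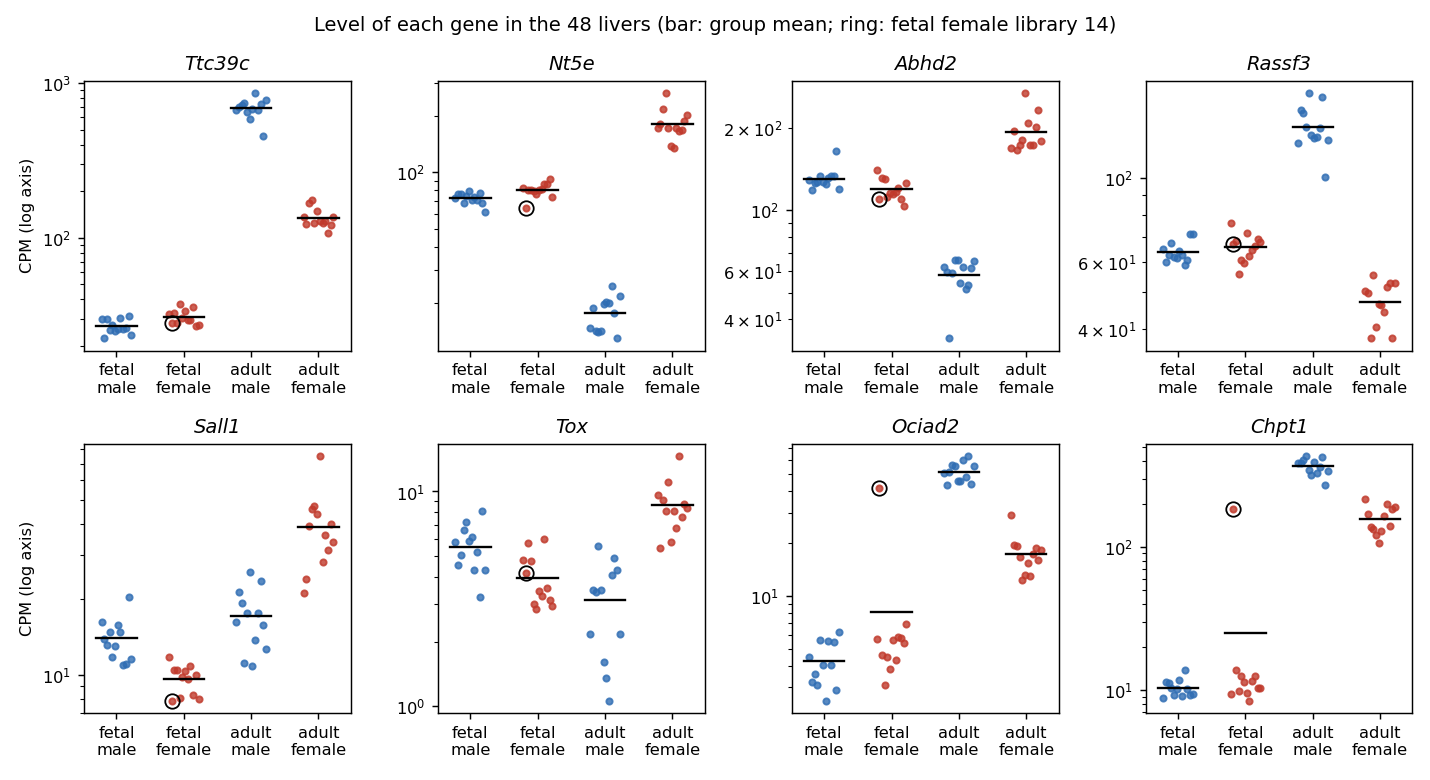
CPM (log axis) of each gene in each of the 48 livers by stage and sex (12 libraries per group), with the group mean as a bar and fetal female library 14 ringed. Adult males and adult females do not overlap for Ttc39c, Nt5e, Abhd2, Rassf3, Ociad2 and Chpt1, while fetal males and females overlap for every gene.

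Nt5e had the largest adult sex difference of the 8. The gene lies at chr9:88327197-88372092 on the plus strand (GENCODE, GRCm38), where no other annotated gene overlaps it. Fetal males ranged from 61.4 to 79.2 CPM with a median of 73.5, and fetal females from 64.1 to 92.3 CPM with a median of 80.7. Adult males ranged from 12.9 to 24.8 CPM with a median of 18.2, and adult females from 134.7 to 265 CPM with a median of 172. Every adult male was thus below, and every adult female above, all fetal livers of either sex. The male minus female difference was -0.11 ± 0.05 (log2, SE, n = 12 per sex) in fetal liver and -3.38 ± 0.11 in adult liver, a 10.4-fold higher level in females. From fetal to adult liver the level was 3.90-fold lower in males and 2.41-fold higher in females.

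Abhd2 (chr7:79273199-79365508, plus strand) moved in the same directions. In fetal liver, males ranged from 118.7 to 165 CPM with a median of 129, and fetal females from 103.6 to 141 CPM with a median of 117. In adult liver, males ranged from 33.9 to 65.9 CPM with a median of 60.6, and adult females from 166 to 269 CPM with a median of 180.1. The lowest adult female was just above the highest fetal liver, at 166 against 165 CPM. Without TMM these ranges overlapped, with adult females from 129.3 CPM and fetal livers up to 186.9 CPM. The highest adult male was below the lowest fetal liver. The male minus female difference was 0.17 ± 0.05 (log2, SE) in fetal and -1.77 ± 0.09 in adult liver. The adult level was 2.16-fold below the fetal level in males and 1.74-fold above it in females. Without TMM the female means were closer, at 158 CPM in adult and 131 CPM in fetal liver.

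Chpt1, the phosphatidylcholine enzyme (chr10:88452745-88504073, minus strand), was higher in adult than in fetal liver in both sexes. The 12 fetal males ranged from 8.84 to 13.8 CPM with a median of 10.2, and the 11 fetal females other than library 14 from 8.39 to 13.9 CPM with a median of 10.3. The 12 adult males ranged from 270.2 to 431 CPM with a median of 374, and adult females from 106 to 217 CPM with a median of 152. The fetal male minus female difference was -1.27 ± 0.53 (log2, SE) with library 14 and -0.03 ± 0.09 without it, and the adult difference was 1.20 ± 0.10. The change of the sex difference with age was 2.49 ± 0.51 with library 14 and 1.28 ± 0.14 without it. Chpt1 overlaps Sycp3 on the opposite strand, and whether the counting used strand is not given in the sources used here. Sycp3 itself was at 0 to 1.26 CPM in the livers and at 10.2 to 38.9 CPM in the eight-cell embryos, and whether its reads entered the Chpt1 counts was not tested.

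Rassf3, the Ras association domain gene (chr10:121410350-121476347, minus strand), had nearly equal levels in the fetal sexes. In the fetal males the level ran from 59.1 to 71.3 CPM with a median of 62.7, and fetal females from 55.9 to 76.2 CPM with a median of 66.6. In the adult males the level ran from 100.4 to 167 CPM with a median of 133, above every fetal liver, and adult females from 37.8 to 55.6 CPM with a median of 48.2, below every fetal liver. The male minus female difference was -0.01 ± 0.05 (log2, SE) in fetal and 1.51 ± 0.07 in adult liver.

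Sall1 (chr8:89027235-89044162, minus strand) was higher in males before birth and in females after it. Fetal males ranged from 10.96 to 20.5 CPM with a median of 13.5, and fetal females from 7.83 to 11.8 CPM with a median of 9.85, so that 8 of 12 fetal males were above every fetal female. Adult males ranged from 10.8 to 25.7 CPM with a median of 16.9, and adult females from 21.1 to 75.1 CPM with a median of 37.8, with 10 of 12 adult females above every adult male. The male minus female difference was 0.57 ± 0.09 (log2, SE) in fetal and -1.20 ± 0.18 in adult liver. With the share of reads outside genes as a covariate the fetal difference was 0.25 ± 0.18.

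Tox (chr4:6686353-6991557, minus strand) had the fewest reads, from 2 to 64 in a liver library, and the widest relative spread in adult males. It overlaps the antisense gene Gm11802, which was not analysed here, and reads of that gene cannot be told apart from those of Tox if the counting did not use strand. In fetal liver, males ranged from 3.24 to 8.10 CPM with a median of 5.54, and fetal females from 2.83 to 6.03 CPM with a median of 3.49. In adult liver, males ranged from 1.06 to 5.56 CPM with a median of 3.43, and adult females from 5.43 to 14.6 CPM with a median of 8.24, with 11 of 12 adult females above every adult male. The male minus female difference was 0.51 ± 0.15 (log2, SE) in fetal liver and -1.42 ± 0.21 in adult liver. With the share of reads outside genes as a covariate the fetal difference was -0.05 ± 0.28. Markers of T and NK lymphocytes, cells in which Tox is best known, summed to 15.1 to 25.9 CPM in fetal liver without library 14, 3.58 to 7.61 CPM in adult males and 3.48 to 9.22 CPM in adult females over 10 genes, and Cd3e, which marks T cells, was at no more than 0.919 CPM in any liver. Il7r, which other blood cell precursors also express, made up most of the fetal sum, with means of 13.1 CPM in males and 11.9 CPM in females. The fetal means of Cd3e, Cd4, Cd8a and Cd2 were below the adult ones. Klrb1c went the other way, at 2.58 and 2.37 CPM in fetal and 0.396 and 0.820 CPM in adult males and females. So did Ncr1, at 0.343 and 0.486 CPM against 0.138 and 0.299 CPM. Nkg7 also fell with age, from a fetal male mean of 3.25 CPM. The means of Cd3d and Cd3g moved in opposite directions in males and females.

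Ociad2 (chr5:73322199-73341028, minus strand) was low in fetal liver. The 12 fetal males ranged from 2.50 to 6.24 CPM with a median of 4.03, and the 11 fetal females other than library 14 from 3.10 to 6.90 CPM with a median of 5.39. The 12 adult males ranged from 42.9 to 63.1 CPM with a median of 50.8, and adult females from 12.4 to 29.0 CPM with a median of 17.1. The fetal male minus female difference was -0.91 ± 0.39 (log2, SE) with library 14 and -0.23 ± 0.15 without it, against 1.54 ± 0.10 in adult liver. The change of the sex difference with age was 2.49 ± 0.41 with that library and 1.82 ± 0.17 without it.

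Ttc39c, the tetratricopeptide repeat gene, had the largest adult difference towards males. In the fetal males the level ran from 22.3 to 31.0 CPM with a median of 26.0, and fetal females from 26.8 to 37.1 CPM with a median of 29.8. In the adult males the level ran from 454 to 857 CPM with a median of 691, and adult females from 107 to 174 CPM with a median of 129. The male minus female difference was -0.17 ± 0.06 (log2, SE) in fetal liver and 2.32 ± 0.08 in adult liver, a 5.00-fold higher level in males. Every adult liver of either sex was above every fetal liver, which with all 48 livers held for Ttc39c but for none of the other 7 genes, and adult and fetal ranges were apart in 40.7% of 13026 genes. Without library 14 the ranges of Chpt1 and Ociad2 were apart too, with fetal livers up to 13.9 and 6.90 CPM and adult livers from 106 and 12.4 CPM.

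**Figure D3:**
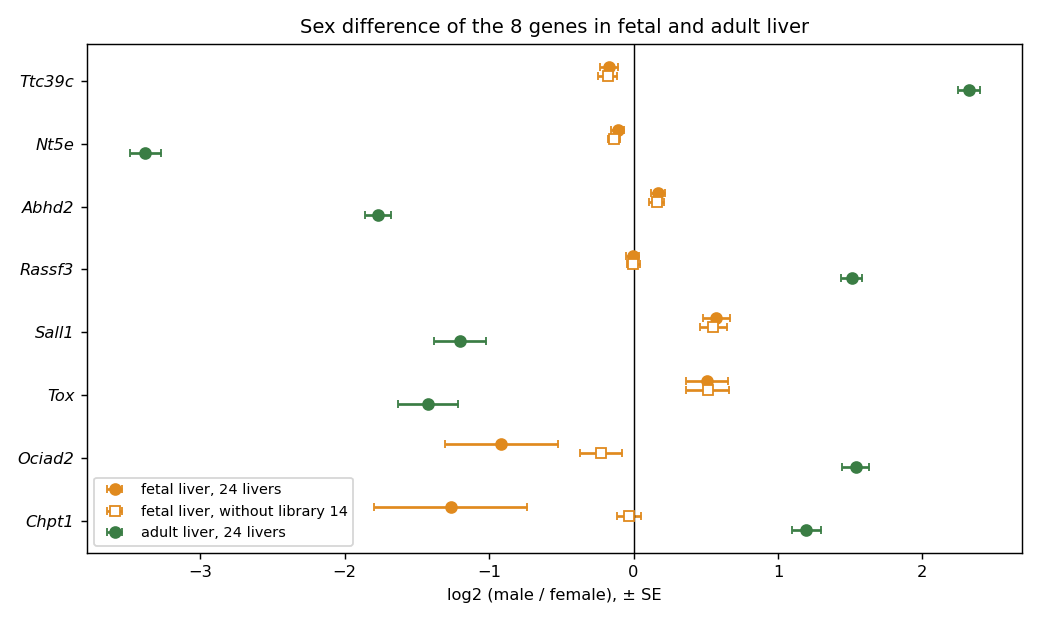
Male minus female difference (log2, horizontal) with its SE for each gene in fetal liver (orange circles, 24 livers; open squares, without fetal female library 14) and adult liver (green, 24 livers). The fetal values of Chpt1 and Ociad2 move from -1.27 to -0.03 and from -0.91 to -0.23 without library 14, and those of the other 6 genes move by less than their SE.

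The adult values are also given within sets of livers divided by the share of reads outside genes. Among the 8 males and 7 females with the lower shares, the male minus female differences (log2) were 2.36 for Ttc39c, -3.43 for Nt5e, -1.79 for Abhd2, 1.54 for Rassf3, -1.15 for Sall1, -1.27 for Tox, 1.56 for Ociad2 and 1.35 for Chpt1. Among the 4 males and 5 females with the higher shares, which had 1567583 to 2494702 reads on genes against 2543698 to 4757610 in the others, they were 2.26, -3.24, -1.67, 1.47, -1.17, -1.79, 1.49 and 1.00 in the same order. These values describe the genes chosen for this difference and carry no test.

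Several cell type marker lists moved with sex in adult liver. The erythroid list was apart, at 192 to 249.2 CPM in males and 18.4 to 56.1 CPM in females over 7 genes, and this was carried by Alas2, the erythroid enzyme of heme synthesis, at 184 to 242 CPM in males and 13.3 to 50.6 CPM in females. The globin genes Hba-a1 and Hbb-b1 had no read in adult liver and at most 0.157 CPM in fetal liver, a blood-forming organ, so their zeros say nothing about red cells here. Slc4a1, a red cell membrane protein, was at 1985 to 3056 CPM in fetal and 0 to 4.18 CPM in adult liver. Endothelial markers summed to 514 to 618 CPM in adult males and 592 to 734 CPM in adult females over 7 genes. Macrophage markers had medians of 525.6 CPM in males and 671 CPM in females, stellate and fibroblast markers 781 and 953 CPM, and pancreatic markers 45.8 and 26.0 CPM, each with overlapping ranges. Of the 6 pancreatic markers, 5 had no read in any adult female and 4 had none in any adult male. Only Cela1 was left in females, and Cela1 and Pnliprp1 in males. The part of cell composition in the sex differences was not tested.

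The spread within a group differed among the genes. In adult males the coefficient of variation was 12.9% for Ociad2, 12.9% for Chpt1, 13.6% for Rassf3, 14.5% for Ttc39c and 15.5% for Abhd2, against a median of 16.7% over 10124 genes whose mean there was 5 CPM or more. Sall1 reached 27.8% and Nt5e 21.2%. Tox reached 46.5%, but its mean of 3.13 CPM there was below that limit and rested on 2 to 18 reads in a library. In adult females it was lowest for Rassf3, at 12.7%, and highest for Sall1, at 36.2%, where a single liver at 75.1 CPM lay above the next at 47.4 CPM. In fetal males it ran from 6.32% for Rassf3 to 29.2% for Ociad2.

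Between fetal and adult liver, averaged over the sexes, 4 of the 8 genes rose by edgeR's quasi-likelihood test at an adjusted p below 0.1 and a log2 difference above 0.5, and none fell. Over all 13026 genes tested, 31.7% rose and 35.4% fell by that rule, 67.1% in all. Chpt1 was higher in adult liver by 3.99 ± 0.27 (log2, SE, adjusted p = 1.5e-18), and by 4.597 ± 0.072 without library 14. Ttc39c was higher by 3.51 ± 0.05 (adjusted p = 4.3e-51) and Ociad2 by 2.47 ± 0.21 (adjusted p = 3.3e-15), the latter by 2.81 ± 0.09 without library 14. Sall1 was higher by 1.26 ± 0.10 (adjusted p = 7.6e-17).

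The other 4 genes stayed under the fold limit in that average. Rassf3 was at 0.42 ± 0.04 (adjusted p = 2.8e-13), Tox at 0.26 ± 0.13 (adjusted p = 0.058), Abhd2 at -0.13 ± 0.05 (adjusted p = 0.016) and Nt5e at -0.32 ± 0.06 (adjusted p = 1.4e-06). The average is taken on the log2 scale, so Nt5e comes out slightly lower in adult liver although its plain mean was 99.7 CPM there and 76.6 CPM in fetal liver. Within each sex these were the genes that moved in opposite directions, given here with no test since the split rests on the sex differences. The adult minus fetal difference (log2) was 1.17 in males and -0.39 in females for Rassf3, -0.72 and 1.19 for Tox, -1.11 and 0.80 for Abhd2, and -1.97 and 1.27 for Nt5e. For Ttc39c it was 4.75 and 2.22, for Chpt1 5.21 and 2.73, for Ociad2 3.69 and 1.20. Sall1 was 1.29-fold higher in adult than fetal males and 4.29-fold higher in adult than fetal females, but without TMM its mean was 13.9 CPM in adult and 15.7 CPM in fetal males, the opposite direction.

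**Figure D4:**
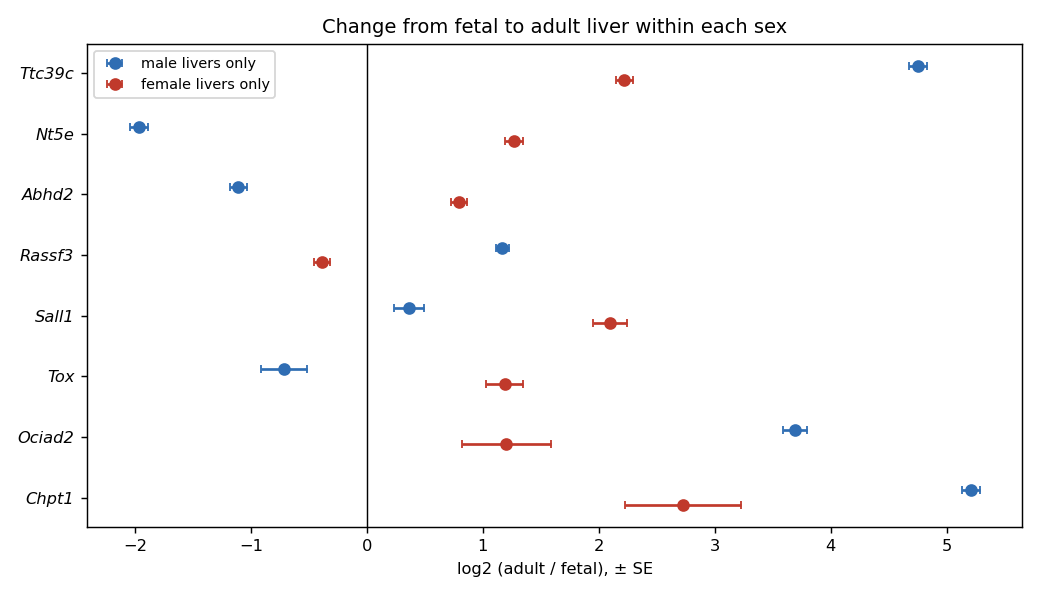
Adult minus fetal difference (log2, horizontal) with its SE for each gene, fitted in the 24 male livers (blue) and in the 24 female livers (red). The sexes have opposite signs for Nt5e, Abhd2, Rassf3 and Tox, and are both above 0 for Ttc39c, Sall1, Ociad2 and Chpt1, although the means of Sall1 in males are in the opposite order without TMM.

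Outside the liver, ES cells were compared with fetal liver, as both were made with the same library kit. By the same test 5 of the 8 genes were lower in ES cells and 1 was higher, where 41.2% of 14858 genes were lower and 35.3% were higher, 76.5% in all. Nt5e was at 6.50 and 7.13 CPM in the male lines and 8.88 and 8.46 CPM in the female lines, lower than fetal liver by 3.26 ± 0.08 on the log2 scale (SE, adjusted p = 1.5e-26). Rassf3 was at 6.33 to 9.54 CPM and fell by 3.12 ± 0.09 (adjusted p = 1.3e-24). Tox was at 0.0786 to 1.59 CPM, resting on 1 to 22 reads in a line, with a difference of -3.35 ± 0.34 (adjusted p = 8.7e-11). Abhd2 was lower with a difference of -1.12 ± 0.07 (adjusted p = 1.0e-15) and Ttc39c with -1.05 ± 0.09 (adjusted p = 2.2e-12).

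Sall1 went the other way. It was at 83.7 and 91.2 CPM in the male and 70.2 and 79.9 CPM in the female ES lines, 2.85 ± 0.09 above fetal liver (log2, SE, adjusted p = 3.5e-24), and the ES lines had the highest group means of this gene in the series. Ociad2 did not pass, at -0.47 ± 0.48 (adjusted p = 0.35). Chpt1 did not pass with all fetal livers, at 0.17 ± 0.61 (adjusted p = 0.79), and was higher in ES cells without library 14, at 0.79 ± 0.10 (adjusted p = 1.2e-08).

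Between male and female ES lines, with 2 lines per sex, 7 of the 8 genes could be tested and Tox had too few reads. Ttc39c alone passed, higher in the female lines at 18.3 and 17.4 CPM against 10.9 and 9.10 CPM in the male lines, a male minus female difference of -0.83 ± 0.17 (log2, SE, adjusted p = 0.052). Over all 12678 genes tested, 6.08% were called higher in female lines and 3.42% in male lines, 9.5% in all. This call was lost when either female line was left out, with adjusted p of 0.47 and 0.46, and edgeR called no gene at all in those fits, with 1290 and 1163 genes at an unadjusted p under 0.05. In each of these fits the lone line is assumed to vary like the others. The other 6 did not pass, the nearest being Abhd2 at -0.36 ± 0.10 (adjusted p = 0.102). Without male line 2, Chpt1, at -0.79 (log2, adjusted p = 2.0e-04), and Rassf3, at 0.55 (adjusted p = 0.053), were also called, and without male line 1 Rassf3 was at -0.05.

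In eight-cell embryos Rassf3, Sall1 and Chpt1 were present in every library, and only these 3 had enough reads to be tested. Chpt1 was at 71.9 to 103.5 CPM in male and 53.1 to 184 CPM in female embryos, Rassf3 at 19.3 to 54.4 and 24.2 to 86.8 CPM, and Sall1 at 7.35 to 52.0 and 5.22 to 44.7 CPM. None of the 3 differed between the sexes by edgeR's quasi-likelihood test (adjusted p = 0.9999 each), DESeq2 called none either, and Rassf3 alone had an unadjusted p under 0.05, where 0.264% of 9087 genes were called, 0.044% higher in males and 0.22% in females. Tox had no read in any of the 12 embryos. Nt5e had none in 6 male and 4 female embryos, Ttc39c had none in 4 of 6 embryos of each sex, Abhd2 was at 7.90 CPM or less, and Ociad2 had at most 1 read. The 3 read floor of an embryo library was 0.388 to 0.644 CPM, so lower levels were not detectable at this depth, and these limits cover counting error only.

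**Figure D5:**
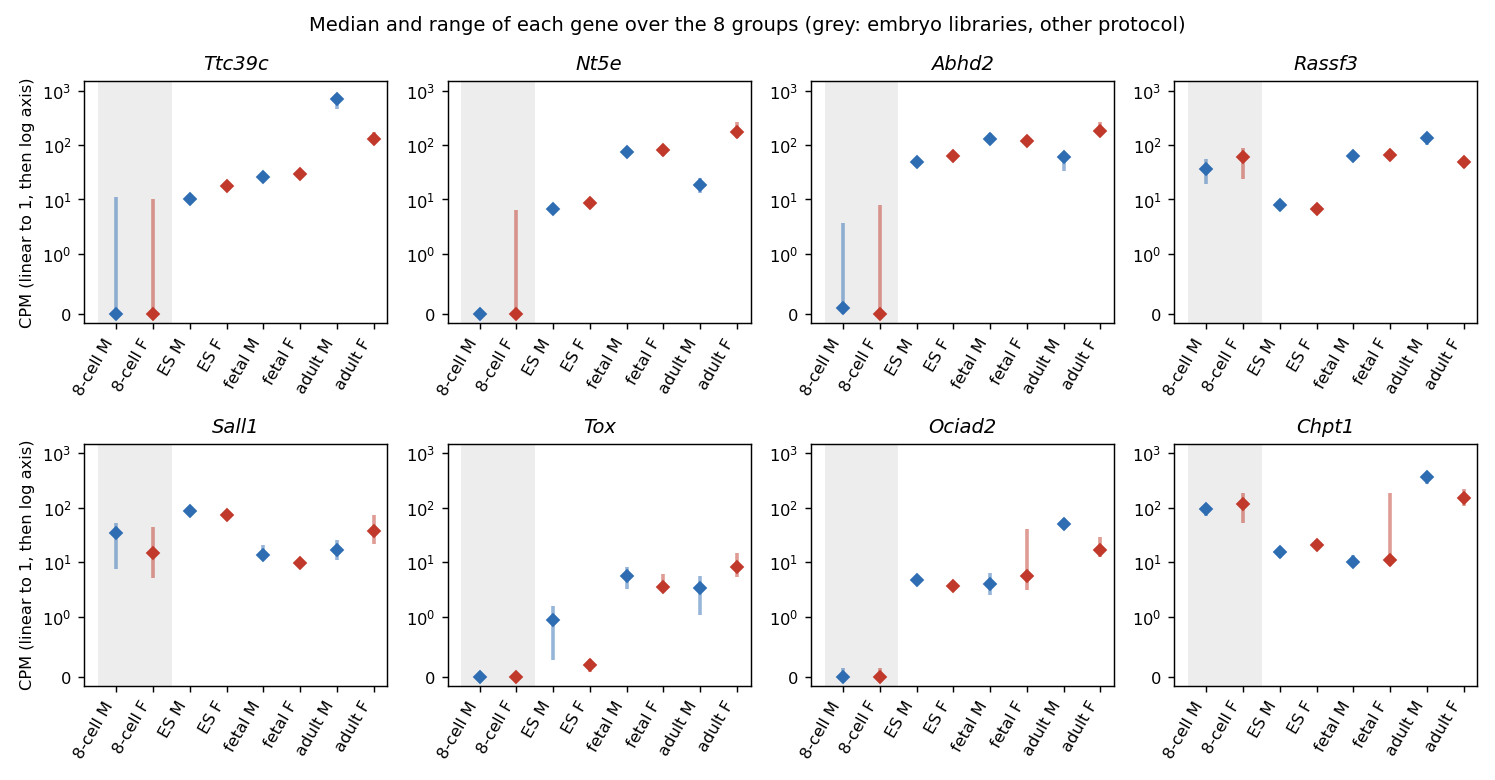
Median (diamond) and range (line) of each gene in CPM (linear up to 1, log axis above) in the 8 groups of male (blue) and female (red) samples, 6 embryos, 2 ES lines and 12 livers per sex and stage. The embryo libraries, shaded, used another protocol. Sall1 is highest in ES cells, Chpt1, Rassf3 and Sall1 are present in embryos, and the other 5 genes have embryo medians near 0.

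In the order of the 8 groups, adult males were highest for Ttc39c, Rassf3, Ociad2 and Chpt1, adult females for Nt5e, Abhd2 and Tox, and male ES lines for Sall1. The leading group was apart from the next for each of these except Tox, whose adult females overlapped with fetal males. For Abhd2 this held with TMM only. For Sall1 it rests on 2 male against 2 female ES lines, whose difference did not pass the test above. Fetal males and females were neighbours with overlapping ranges for Ttc39c, Nt5e, Abhd2, Rassf3, Sall1 and Tox. For Abhd2, adult males overlapped with both ES groups. For Chpt1, adult females overlapped with female embryos. For Rassf3 the fetal groups, the female embryos, the adult females and the male embryos formed a chain of overlapping neighbours. The embryo libraries used another protocol, and its part in their places in this order was not tested. Levels across stages depend on the scaling, since CPM without TMM was on average 0.809 times that with it in adult males and 1.13 times in fetal males, and without TMM 3 of the 8 genes kept the same order of groups.

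The genes most like each member over the 48 livers were sought by the root mean square difference (RMS) of log2(CPM + 0.5) after centring each gene on its mean. Rassf3 had the closest match, Mcm10 at an RMS of 0.27, with 137 CPM in adult males and 44.1 CPM in adult females, followed by Zkscan3 at 0.32. Abhd2 was closest to Cyp2c68 at 0.32 and Qpct at 0.33, Sall1 to Fmo1 at 0.36 and C3 at 0.40, and Ttc39c to Aox3 at 0.37 and Scp2 at 0.44. Tox was closest to Abca3 at 0.47 and Eif4e3 at 0.49, and Nt5e to Fam84b at 0.56 and Fam19a2 at 0.62. For Ociad2 the closest were Enpp3 at 0.48 and Tmem19 at 0.53, and for Chpt1 Ces2e at 0.53 and Ephx2 at 0.56. Without library 14 the closest were Ugt2b35 and Hsd3b2 for Ociad2, both at 0.385, and Cyp4v3 at 0.31 and Ephx2 at 0.36 for Chpt1. With a pseudocount of 2 the closest gene stayed first for 7 of the 8 members, Ces2e fell to place 3 for Chpt1, and among the second genes Tmem19 fell to place 11 and Fam19a2 to place 6.

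Nt5e acts in a chain in which ATP outside cells is broken down to adenosine, which is then taken up or sensed by receptors. Of 21 other genes of this chain, 11 were tested in adult liver, where 3 were higher in males and 3 in females, against 3.01% and 6.48% of 10372 genes, and the list's median log2 difference was -0.24 against -0.00094 over all genes. Enpp1, which makes AMP from ATP, was higher in females (62.8 against 32.1 CPM, adjusted p = 1.8e-10), as were the adenosine transporter Slc29a1 (320 against 228 CPM, adjusted p = 2.3e-04) and Acpp, another AMP phosphatase (18.8 against 11.1 CPM, adjusted p = 3.5e-04). Enpp3 was higher in males (121 against 59.9 CPM, adjusted p = 1.8e-06), as were the adenosine receptor Adora1 (19.3 against 10.5 CPM, adjusted p = 0.0014) and the phosphatase Alpl (14.7 against 10.1 CPM, adjusted p = 0.012). In fetal liver none of 18 was called by edgeR or DESeq2, where 4.64% of 12930 genes were called by edgeR. An unadjusted p under 0.05 was found for 7 of the 18, and for 5235 of the 12930. From fetal to adult liver 7 of 16 rose and 6 fell, against 31.7% and 35.4% of all genes, with Entpd8 at 154 against 21.5 CPM, Adk at 988 against 247 CPM and Entpd5 at 504 against 75.9 CPM among those that rose.

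Chpt1 makes phosphatidylcholine. Of other genes of phosphatidylcholine and phosphatidylethanolamine synthesis and of choline transport, 13 were in the files. In adult liver 1 of 11 differed between the sexes, near the 9.49% of all genes, namely Etnk1, an ethanolamine kinase, at 216 CPM in males and 131 CPM in females (adjusted p = 8.3e-09). None of 12 was called between the fetal sexes by edgeR or DESeq2, against 4.64% of all genes called by edgeR. An unadjusted p under 0.05 was found for 6 of the 12, and for 5235 of 12930 genes. From fetal to adult liver 6 of 12 rose and 2 fell, against 31.7% and 35.4% of all genes, with a median log2 difference of 0.49 against -0.05 over all genes. Etnk2 rose from 43.7 to 400 CPM, Pcyt2 from 151 to 582 CPM and Ept1 from 81.2 to 175 CPM, while Pcyt1b fell from 32.1 to 0.34 CPM and the choline transporter Slc44a2 from 33.8 to 13.2 CPM.

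Rassf proteins can bind the Hippo kinases, and 20 genes of both families were in the files. None of 17 was called between the adult sexes by edgeR or DESeq2, against 9.49% of 10372 genes by edgeR. An unadjusted p under 0.05 was found for 7 of the 17, and for 3820 of the 10372. In fetal liver 1 of 18 was called, against 4.64% of 12930 genes. It was Mob1b, a kinase partner, at 55.4 CPM in males and 39.0 CPM in females (adjusted p = 2.5e-05). With the share of reads outside genes as a covariate the Mob1b difference was 0.03 ± 0.14 (log2). Between stages 5 of 18 rose, among them Yap1 from 45.0 to 117 CPM and Wwc1 from 18.3 to 67.3 CPM, and 7 fell, among them Stk4 from 92.4 to 42.3 CPM and Rassf2 from 24.3 to 4.48 CPM. Both counts are near the shares of all genes, 31.7% and 35.4%.

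Of 20 paralogs of the 8 genes, none of 13 tested was called between adult males and females by edgeR, against 9.49% of 10372 genes. DESeq2 called 1. An unadjusted p under 0.05 was found for 5 of the 13, and for 3820 of the 10372. None of 16 was called between the fetal sexes by either tool, against 4.64% of 12930 genes by edgeR. An unadjusted p under 0.05 was found for 5 of the 16, and for 5235 of the 12930. Between stages 7 of 16 rose and 4 fell, against 31.7% and 35.4% of all genes. Ttc39b rose from 12.3 to 104 CPM, Abhd14b from 35.0 to 196 CPM and Abhd3 from 18.5 to 120 CPM, while Ttc39a fell from 14.1 to 0.687 CPM and Abhd5 from 163 to 56.8 CPM, and Sall4, a pluripotency factor, had a mean of 7.12 CPM in fetal liver and no read in adult liver. In ES cells Sall4 was at 218 CPM, so Sall1 and Sall4 were both higher there than in fetal liver.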

How the data were processed

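RNA was sequenced from 64 libraries, and the authors deposited 1 file of raw read counts per gene for each. Per the labels and the study's methods, reads were aligned to mm10 with TopHat2 2.0.4 and Bowtie2 2.1.0, duplicates were removed with Picard, and the counts were made with HTSeq; SAMtools 0.1.18 is also named. The eight-cell libraries came from a single-cell protocol and all others from a stranded total RNA kit. Removing duplicates lowers the counts of highly expressed genes, and the strand setting of the counting is not given in the sources used here. The 5 rows that name no gene were left out of totals and tests. The share of reads that HTSeq placed outside genes ran from 25.7 to 36.6% in adult, from 34.1 to 49.0% in fetal, from 26.7 to 31.3% in ES and from 8.63 to 14.4% in embryo libraries.

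Counts were fitted across all genes with edgeR 4.0.16 (quasi-likelihood test, TMM, filterByExpr) in R 4.3.3, with Benjamini-Hochberg adjustment over all genes tested. A gene was called at an adjusted p below 0.1 and a log2 difference beyond 0.5. DESeq2 1.42.0 was an alternative, and the tests were checked on simulated data. The members and lists were chosen with earlier results of these data known. Genes named are the 8 members, up to 3 genes per list and direction with the smallest adjusted p, the 2 genes most like each member (log2 of CPM + 0.5), and Xist and Ddx3y. No pair of libraries agreed within sampling noise. Alternatives tried were DESeq2, its size factors, other filters and thresholds, the replicate block, single sexes, covariates and left-out libraries. Those that leave out fetal libraries or divide the adult livers were chosen after seeing the data. The list of intestinal markers was also not part of the plan and was added. With 1567583 reads or more per library, precision is lowest for Tox.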

Additional observations from a re-analysis of the deposited data

Results flagged for a closer look

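In groups of 6 embryos, 5 of the 13 sets of levels with any read had a library far from the rest. The usual chance rate of about 1 in 20 does not apply where most embryos had no read, since a single embryo with reads then stands apart by construction. Ttc39c was at 10.95 CPM in 1 male embryo, from 75 reads, and at 10.37 CPM in 1 female embryo, from 77 reads. Nt5e was at 6.335 CPM in 1 female embryo, from 51 reads, and Abhd2 at 7.896 CPM in another, from 47 reads. Ociad2 was at 0.1562 CPM in 1 female embryo, which is 1 read.

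For 8 genes of the lists, none of them among the 8 members, the sex difference itself changed from fetal to adult liver by edgeR's quasi-likelihood test. They were 4 of 16 genes tested for adenosine, 1 of 12 for phosphatidylcholine, 1 of 18 for Rassf and Hippo and 2 of 16 paralogs, where 13.7% of all genes were called, so the count as a whole is near the background. The change of the male minus female difference (log2) was 1.186 for Enpp3 (adjusted p = 6.8e-05), 0.9863 for Adora1 (adjusted p = 0.0015) and 0.5801 for Abhd5 (adjusted p = 0.0029), towards males. It was -0.9618 for Enpp1 (adjusted p = 1.6e-08), -0.7274 for Acpp (adjusted p = 0.0061), -0.5707 for Ttc39b (adjusted p = 4.3e-04), -0.5674 for Slc44a2 (adjusted p = 0.0013) and -0.542 for Rassf4 (adjusted p = 0.0060), towards females. With the share of reads outside genes as a covariate, Enpp1 alone of these 8 stayed called (adjusted p = 0.027).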

How the results depend on the processing

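Of 51 counts of called genes, 39 stayed within 1.5 times the reported count. Between the fetal sexes 600 genes were called, against 1057 without a filter on low counts, 4807 without a fold limit and 9 with the share of reads outside genes as a covariate. Between the adult sexes 984 were called, against 1518 without the filter and 3400 without the fold limit. The change of the sex difference called 1787 genes, against 4384 without the fold limit and 744 with the covariate. In eight-cell embryos DESeq2 called 64 genes against 24. Leaving out an ES line moved the 1205 calls between ES sexes to between 0 and 3070, with 0 without either female line.

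Of 380 values of the 8 genes under alternatives, 340 kept direction and call. These include the liver sex differences on which the genes were chosen, so the count is a description and no support for them. Between stages, the direction reversed in single sexes for Nt5e (1.27 in females), Abhd2 (0.80 in females), Rassf3 (-0.39 in females) and Tox (-0.72 in males). Between the fetal sexes it reversed with the covariate for Abhd2 (-0.07), Tox (-0.045), Ociad2 (0.20) and Chpt1 (0.22), and for Chpt1 (0.018) without fetal female libraries 14 and 15 and male library 12. The covariate fits kept library 14. In ES cells Rassf3 went from -0.055 without male line 1 to 0.55 without male line 2. The cause was not tested.

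With the replicate block 8731 genes were called between stages against 8742, and 1661 for the change of the sex difference against 1787. The numbers did not pair the samples: over 24 pairs the correlations ran from -0.092 to 0.045, and 1 correlated best with its own number. The pair of genes most like a member changed in 8 of 16 cases, over the 8 members under a pseudocount of 2 and without library 14.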
